A study of Rattus norvegicus with 40 samples.

Results

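The circadian clock genes Bmal1, Nr1d1, Nr1d2, Dbp and Per2 were followed across every array of a rat carotid artery series. They were taken as all probe sets that the platform annotation assigns to exactly 1 of these symbols, which gave 8 probe sets for 5 genes among 8740 probe sets without controls. All 8 were bright enough to be kept among the 5827 probe sets tested. The genes had been chosen because their values on these arrays differed between groups, so their own levels and differences are given as a description. Bmal1 was read by AF015953_at and AB012600_s_at, Nr1d1 by M25804_g_at and M25804_at, Nr1d2 by U20796_at, Dbp by J03179_g_at and J03179_at, and Per2 by AB016532_at. The paired probe sets of Nr1d1 and of Dbp read the same transcript and are not independent measurements.

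The study asked which genes accompany the early remodelling of an injured artery under tissue plasminogen activator (tPA), a protease that activates plasmin. Male Wistar-Kyoto rats, 3 months old and kept under a regular light-dark cycle, had the left common carotid artery injured with a balloon catheter. The outer side of that artery then received plain pluronic gel, a polymer carrier, or the gel with recombinant tPA at 20 nmol/kg. The left and the right carotid of these animals were taken on day 1 or day 4, with 3 arrays in each of the 8 resulting groups. The right artery was not injured itself, but it came from an animal with an injured and gel-treated left artery. There were 4 arrays of left carotids from sham-operated rats for day 1 and 6 for day 4. Another 6 arrays held intact left carotids of rats without an operation, so that 40 arrays in 11 groups were compared. Each array held RNA pooled from 3 vessels. The labels do not say whether replicate arrays were made from separate sets of animals, so that the errors measure the spread between these arrays. The hour of day at which tissue was taken is not given in the sources used here. These genes cycle over the day, so any difference in hour between groups would enter every comparison given here, and its part was not tested.

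In the clock, BMAL1 pairs with CLOCK and binds E-boxes in the promoters of other clock genes. PER2, with the cryptochromes, inhibits that pair, and NR1D1 and NR1D2, the REV-ERB nuclear receptors, bind ROR elements (ROREs) and repress Bmal1. DBP is a transcription factor driven by E-boxes that acts on D-boxes, and its RNA is among the strongest cycling outputs of the clock in peripheral tissue, arteries included. Bmal1 RNA therefore peaks at the opposite time of day from Dbp and Nr1d1 RNA, with Per2 somewhat later than Dbp. In blood vessels these genes are known to cycle in smooth muscle and endothelium.

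Promoter windows were read from RefSeq on build GRCr8, from 250 bases before to 50 bases after each annotated start, and all 5 genes had at least 1. They were searched on both strands for the E-box CACGTG, the E-box-like CACGTT, the D-box TTATGTAA and the RORE core TAGGTCA, and no match overlapped another. Of 33469 rat windows of the same length, 6.42% held the E-box, 4.83% the E-box-like motif, 0.893% the D-box and 2.63% the RORE core. The 4 windows with a match are shown because they hold the letters of such motifs next to the genes measured, with the matched letters in capitals. The Bmal1 window (chr1:176766078-176766377, plus strand) held the RORE core with its first base at position -16 relative to the start. The Nr1d1 gene has a window at each of its annotated starts. One (chr10:84231763-84232062, minus strand) held the E-box-like motif in reverse, at -174, and the other (chr10:84229405-84229704, minus strand) held the E-box at -191. The Per2 window (chr9:99496944-99497243, minus strand) held the D-box at -192 and the E-box-like motif at -62. The windows of Nr1d2 and Dbp did not hold these letters, which says nothing of sites outside them. A match is a match of letters and was not tested for binding.
Bmal1 promoter: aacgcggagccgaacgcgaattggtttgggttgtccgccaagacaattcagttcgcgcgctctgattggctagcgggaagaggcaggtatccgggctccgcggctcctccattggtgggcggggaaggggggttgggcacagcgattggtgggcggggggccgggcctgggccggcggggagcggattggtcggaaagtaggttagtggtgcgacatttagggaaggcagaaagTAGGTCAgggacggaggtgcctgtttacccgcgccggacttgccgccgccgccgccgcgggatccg
Nr1d1 promoter (E-box-like): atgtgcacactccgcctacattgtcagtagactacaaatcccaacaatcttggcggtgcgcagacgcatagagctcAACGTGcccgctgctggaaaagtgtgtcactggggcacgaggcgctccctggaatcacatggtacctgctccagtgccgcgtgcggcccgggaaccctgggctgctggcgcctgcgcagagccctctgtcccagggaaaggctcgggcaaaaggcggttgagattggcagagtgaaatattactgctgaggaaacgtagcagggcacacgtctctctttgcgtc
Nr1d1 promoter (E-box): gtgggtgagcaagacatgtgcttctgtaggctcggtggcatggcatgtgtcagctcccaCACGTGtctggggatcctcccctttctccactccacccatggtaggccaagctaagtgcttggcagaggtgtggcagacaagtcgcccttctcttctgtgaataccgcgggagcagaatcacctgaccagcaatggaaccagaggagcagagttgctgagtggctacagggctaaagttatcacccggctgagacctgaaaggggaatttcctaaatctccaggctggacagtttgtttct
Per2 promoter: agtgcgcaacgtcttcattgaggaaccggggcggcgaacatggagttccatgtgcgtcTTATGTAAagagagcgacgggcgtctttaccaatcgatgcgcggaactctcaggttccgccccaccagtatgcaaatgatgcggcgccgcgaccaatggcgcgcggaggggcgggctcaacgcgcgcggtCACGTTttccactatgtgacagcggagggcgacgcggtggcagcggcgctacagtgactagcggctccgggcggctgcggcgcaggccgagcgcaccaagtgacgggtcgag

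The deposited intensities carried a scaling that put the trimmed mean of every array between 500.3 and 500.8, so each value is relative to the rest of its array. A floor of 23.3, the 20th percentile of all values, replaced anything smaller before log2 was taken. Between 6.57% and 25.2% of an array's probe sets lay at the floor, with replicate 3 of the right gel group on day 1 the lowest. Left gel replicates 1 and 3 on day 1 were the most alike pair of arrays of 1 group, with an SD of log2 differences of 0.450 against a median of 0.838 over 60 pairs. The brightest probe sets of the smooth muscle markers Acta2, Cnn1, Myh11 and Actg2 read at least 4835, 1007.8, 907.5 and 724.9 on all arrays. Other smooth muscle probe sets were dimmer. Des had a median of 54.5, Tagln M83107_g_at fell to 0.6 with 2 arrays at the floor, and Acta2 X06801cds_i_at was at the floor on 12 arrays. Of the arrays from tPA-treated rats, 4 differed from the rest of their group, namely replicate 2 of left and of right tPA on day 1 and replicate 1 of left and of right tPA on day 4. The lymphocyte marker score, the mean of 5 genes each centred over all arrays, was -1.08 on the first of these against 2.01 on both others of its group, and 1.35 on the second against 0.23 and 0.28. It was -0.91 on the third against 1.51 and 1.86, and 1.88 on the fourth against -1.12 and -0.32. On both days the left array was thus the lowest and the right array the highest of its group, the reverse of how the other left and right tPA arrays lay. The tPA comparisons are therefore given with and without these 4 arrays. In RNA from whole vessels, fewer cells of a type and less RNA per cell cannot be told apart.

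Bmal1 signal was highest in the sham arteries on day 1 and lowest in the intact arteries. Its brighter probe set AF015953_at read 656.7, 896.2, 1104.5 and 697.0 on the sham arrays of day 1. These values lie above those of all 36 other arrays, since the nearest, replicate 1 of right gel on day 4, read 558.3. In the intact arteries the same probe set ran from 25.5 through a median of 62.7 to 110.4. The sham arteries of day 4 ran from 99.9 through a median of 109.95 to 182.4, which overlaps the intact range at its lower end and lies wholly below the sham range of day 1. Left gel arteries read 322.1, 288.7 and 351.8 on day 1 and 360.6, 244.6 and 359.7 on day 4. Both sets of left gel arrays therefore fell between the intact and the day 1 sham arrays, without overlap with either. Right gel arteries read 156.9, 207.7 and 232.7 on day 1, and 558.3, 278.9 and 502.8 on day 4, with the 3 arrays of day 4 above those of day 1. Left tPA arteries read 154.4, 252.9 and 413.2 on day 1 and 117.7, 220.7 and 421.0 on day 4. Right tPA arteries read 148.4, 548.5 and 260.2 on day 1 and 283.6, 60.9 and 159.7 on day 4. In the right tPA artery the array that stood apart was the highest of its group on both days. The group means of log2 signal went from 9.68 ± 0.35 (SD, n = 4) in the day 1 sham arteries down to 5.82 ± 0.72 (n = 6) in the intact arteries. Between these, right gel on day 4 (8.74 ± 0.54, n = 3) stood next to the top and the day 4 sham arteries (6.97 ± 0.38, n = 6) next to the bottom. Only the top step of this order, from sham on day 1 to right gel on day 4, had no overlap between neighbours, and over all pairs of groups 24 of 55 did not overlap.

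The second Bmal1 probe set, AB012600_s_at, lay near the floor on many arrays. It read 251.4, 307.9, 283.4 and 234.3 in the day 1 sham arteries and lay at or under the floor on 5 of 6 intact arrays, so its differences from intact are understated. On day 4 the sham arrays ran from 13.7 through 33.55 to 49.0, while left gel read 131.8, 161.8 and 86.5 and right gel 202.2, 98.2 and 238.6. All gel arrays of day 4 thus exceeded all sham arrays of that day on both Bmal1 probe sets. Across the 40 arrays the 2 probe sets correlated with r = 0.74, and with r = 0.12 once group means were removed.

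Nr1d1, which encodes the receptor REV-ERBα, was low in the day 1 sham arteries, where Bmal1 was highest. M25804_g_at read 260.6, 223.9, 189.1 and 289.3 in the day 1 sham arteries, against 494.6 to 893.3 with a median of 610.6 in the intact arteries. The day 4 sham arteries were brightest, from 563.2 through 845 to 2092.9. The intact and the day 4 sham ranges overlap, and both lie wholly above the day 1 sham range. Left gel arteries read 280.4, 261.9 and 316.6 on day 1 and 285.4, 149.7 and 209.1 on day 4. Right gel arteries read 414.3, 406.0 and 658.0 on day 1 and 393.8, 504.4 and 224.7 on day 4. The left gel arrays were below the right ones on day 1 without overlap, and overlapped with them on day 4. Left tPA arteries read 461.2, 382.5 and 464.4 on day 1 and 959.6, 808.1 and 517.4 on day 4. Right tPA arteries read 1021.5, 221.2 and 575.2 on day 1 and 535.5, 671.4 and 1137.7 on day 4. The left tPA arrays of both days lay above the left gel arrays of the same day. Group means of log2 signal ran from 9.83 ± 0.70 (n = 6) in the day 4 sham arteries to 7.70 ± 0.47 (n = 3) in left gel on day 4, next to 7.89 ± 0.27 (n = 4) in the day 1 sham arteries, and 25 of 55 pairs of groups had no overlap. M25804_at gave the same groups at the ends of the order and correlated with M25804_g_at at r = 0.88.

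Nr1d2, the gene of REV-ERBβ, had its lowest signal in the day 1 sham arteries, where U20796_at read 107.5, 193.7, 178.9 and 164.4. In the intact arteries it ran from 490.5 through 1232.4 to 1689.2, and in the day 4 sham arteries from 393.9 through 554.95 to 1327.4. As for Nr1d1, both lie above the day 1 sham range without overlap, but here intact was the highest group. Left gel arteries read 404.0, 356.7 and 366.6 on day 1 and 279.1, 109.0 and 341.9 on day 4. Right gel arteries read 715.2, 416.1 and 693.7 on day 1 and 447.9, 147.6 and 130.2 on day 4. On day 1 both gel groups were above all sham arrays of that day, and on day 4 the left gel group was below all sham arrays of that day while 1 right gel array reached into the sham range. Left tPA arteries read 443.7, 437.8 and 296.3 on day 1 and 299.8, 512.3 and 858.3 on day 4. Right tPA arteries read 1475.3, 199.0 and 480.3 on day 1 and 132.6, 450.6 and 1479.2 on day 4, where the lowest array of each day was the one that stood apart. The group means of log2 signal ran from 10.12 ± 0.62 (n = 6) in intact to 7.30 ± 0.38 (n = 4) in the day 1 sham arteries, and 15 of 55 pairs of groups did not overlap.

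Per2, the inhibitor of the BMAL1 pair, followed another order. AB016532_at was highest in the intact arteries, from 454.4 through 710.4 to 828.6. The day 1 sham arteries read 443.4, 492.8, 374.7 and 335.0, and the day 4 sham arteries ran from 208.1 through 414.7 to 609.7. The 2 sham groups overlap fully, so Per2 did not share the split between sham days seen for Bmal1, Nr1d1 and Nr1d2. Left gel arteries read 361.0, 602.3 and 335.8 on day 1 and 189.7, 229.2 and 266.0 on day 4. Right gel arteries read 499.4, 419.2 and 518.1 on day 1 and 276.7, 169.5 and 183.0 on day 4. In both arteries of gel-treated rats all day 4 arrays were below all day 1 arrays. Left tPA arteries read 168.8, 168.5 and 264.9 on day 1 and 500.8, 298.6 and 501.2 on day 4, the reverse order of days without overlap. Right tPA arteries read 412.9, 265.5 and 376.2 on day 1 and 116.3, 550.8 and 576.3 on day 4. The mean log2 signal ran from 9.40 ± 0.32 (n = 6) in intact to 7.62 ± 0.38 (n = 3) in left tPA on day 1, and 18 of 55 pairs of groups had no overlap.

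Dbp, the output factor, had the widest swing after Bmal1 among the brightest probe sets. J03179_g_at ran from 2409.5 through 3601.35 to 4419.0 in the intact arteries and read 300.8, 247.0, 308.2 and 301.7 in the day 1 sham arteries. The day 4 sham arteries ran from 1364.6 through 1910.05 to 3416.6. The day 1 sham arrays lay below every intact and every day 4 sham array, and the last 2 groups overlapped. Left gel arteries read 503.2, 139.7 and 449.1 on day 1 and 414.8, 414.5 and 230.0 on day 4. Right gel arteries read 594.5, 952.8 and 325.4 on day 1 and 680.1, 548.0 and 240.6 on day 4. All gel arrays of day 4 were below all sham arrays of day 4, and the left gel arrays of day 1 lay on both sides of the day 1 sham range. Left tPA arteries read 229.6, 1230.8 and 417.7 on day 1 and 2039.5, 848.8 and 1440.1 on day 4. Right tPA arteries read 1215.1, 207.5 and 1485.7 on day 1 and 764.5, 3002.6 and 1949.2 on day 4. In the left artery the arrays that stood apart held the highest Dbp of their group and in the right artery the lowest. Mean log2 signal ran from 11.73 ± 0.36 (n = 6) in intact to 8.17 ± 0.15 (n = 4) in the day 1 sham arteries, and 23 of 55 pairs of groups did not overlap. J03179_at, with r = 0.94 to its partner over the 40 arrays, had 2 of the 3 left gel arrays of day 4 at the floor.

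**Figure D1:**
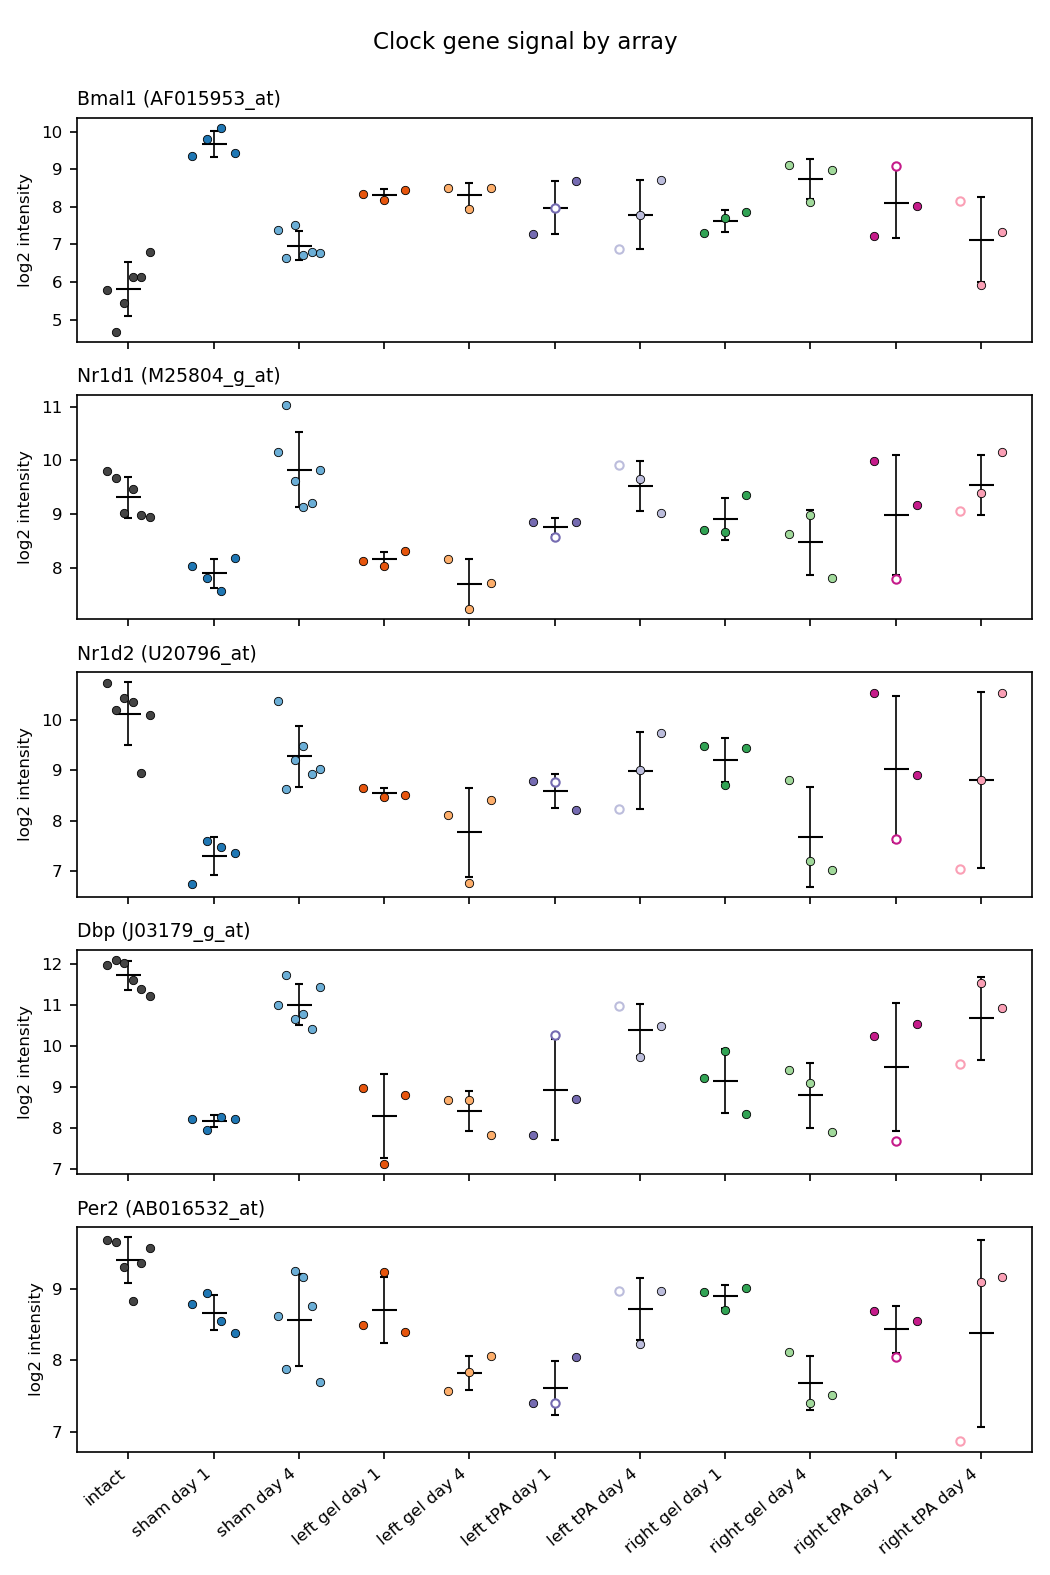
Log2 intensity of the brightest probe set of each of the 5 genes (vertical axes) on all 40 arrays in 11 groups (horizontal axis). Points are arrays, horizontal bars and whiskers are means and SD, and open points are the 4 tPA arrays that stood apart. The day 1 sham arrays are the highest for Bmal1, and for Nr1d2 and Dbp that group has the lowest mean.

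The F statistic over the 11 groups passed the threshold of 0.05 on the limma adjusted p for 8 of 8 probe sets, against 26.1% of all tested probe sets. Since these values chose the genes, nothing is read from that count. The spread of group means was 3.86 log2 units for Bmal1 AF015953_at, 3.56 for Dbp J03179_g_at, 2.82 for Nr1d2, 2.13 for Nr1d1 M25804_g_at and 1.79 for Per2. Among all tested probe sets 3.00%, 3.91%, 7.52%, 14.3% and 21.5% had a wider spread than these, in the same order. Per2 and Nr1d1 were therefore not extreme by size.

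The sham arteries of day 1 differed widely from intact arteries. Relative to intact arteries the log2 difference of Bmal1 was 3.86 (SE 0.40, 95% interval 3.05 to 4.67), a 14.5-fold higher mean. Dbp was lower by 11.8-fold on J03179_g_at, at -3.56 (SE 0.48, -4.54 to -2.57), and by 17.3-fold on J03179_at. Nr1d2 was 7.07-fold lower, at -2.82 (SE 0.51, -3.86 to -1.79). The REV-ERBs and Dbp thus stood opposite to Bmal1. Nr1d1 was 2.68-fold lower on M25804_g_at, at -1.42 (SE 0.34, -2.12 to -0.72). Per2 differed least, at -0.74 (SE 0.33, -1.42 to -0.06). In all, 7 of 8 probe sets were called, 2 higher and 5 lower, where 0.944% of all tested probe sets were called, 0.395% higher and 0.549% lower. The same 7 had no overlap between groups, a description, since the share of all tested probe sets without overlap is not given here. Under quantile normalization or median scaling 5 of 8 were called. The median over all tested probe sets was -0.09 in this comparison.

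Between the sham days the picture turned around. Bmal1 was 6.55-fold lower on day 4 than on day 1 on AF015953_at, at -2.71 (SE 0.40, -3.52 to -1.90), and 8.01-fold lower on AB012600_s_at. Dbp was 7.17-fold higher on J03179_g_at, at 2.84 (SE 0.48, 1.86 to 3.83). Nr1d1 and Nr1d2 were 3.82-fold and 3.93-fold higher, and Per2 differed by -0.10 (SE 0.33, -0.78 to 0.58). Here 7 of 8 probe sets were called, 5 higher and 2 lower, against 5.01% of all tested probe sets, 3.30% higher and 1.72% lower. Both comparisons share the day 1 sham arrays, so the second cannot be read as a repeat of the first. Against intact, the day 4 sham arteries had Bmal1 higher by 1.14 (SE 0.36, 0.42 to 1.87) and Per2 lower, at -0.84 (SE 0.30, -1.45 to -0.23). None of the 8 was called in that comparison by limma, 2 were under 0.05 unadjusted, and 0.378% of all tested probe sets were called. No measure of array quality or scaling separated all arrays of any of these 3 pairs of groups. The array medians of day 1 sham replicates 1 to 3 were 103.75 to 109.3, below all intact (114.45 to 132.55) and day 4 sham arrays (122.2 to 155). Their ratios of 3' to 5' actin probe sets were 20.5 to 21.1, above all intact arrays (10.7 to 17.6) but within the day 4 sham range (11.8 to 23.7). Day 1 sham replicate 4 had a median of 131.2 and a ratio of 16.3. Of 55 markers of vessel and neighbouring cell types, limma called 0 between day 1 sham and intact (10 unadjusted) and 3 between the sham days. The lymphocyte score was nevertheless higher in the day 1 sham arteries, at -0.28 to 0.54, than in intact (-1.38 to -0.53) and day 4 sham arteries (-1.27 to -0.98), without overlap, the same split as in most of the clock genes. The immediate early score also separated day 1 sham, from -0.01 to 0.10, from intact, from -0.69 to -0.03. The part of these scores and of the array measures in the result was not tested.

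Balloon injury with plain gel was set against sham surgery on the same day. On day 1 the left gel arteries had less Bmal1 signal than sham, at -1.36 (SE 0.47, -2.32 to -0.40) on AF015953_at and -1.85 (SE 0.47, -2.81 to -0.89) on AB012600_s_at. Nr1d2 was higher by 1.25 (SE 0.60, 0.03 to 2.48), while Nr1d1, Dbp and Per2 differed by 0.26, 0.13 and 0.04 on their brightest probe sets, the last of which changes sign under another scaling. Only AB012600_s_at was called, 1 of 8 against 3.12% of all tested probe sets. That count became 0 without sham replicate 2 or 3 or left gel replicate 1 or 3, and 0 with the alike left gel arrays averaged or with a stricter filter, which drops AB012600_s_at. It became 2 in a fit of only these groups and 5 with array weights, where 459 and 1430 of the 5827 tested probe sets were called. On the same arrays 7 of 12 skeletal muscle genes were higher in left gel, with scores of 2.42 to 3.63 against -1.15 to -0.71 in sham. Without overlap, left gel also had higher macrophage (0.37 to 0.95 against -0.58 to -0.16), neutrophil (0.51 to 2.78 against -1.06 to -0.23) and fibroblast scores (0.50 to 0.63 against -0.83 to 0.08), with 1 call in each list. The nerve score was lower, at -1.13 to -1.01 against -0.85 to 0.24. The part of these tissues in the clock values was not tested.

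On day 4 the direction against sham was the other way. Left gel arteries had 2.53-fold more Bmal1 signal on AF015953_at, at 1.34 (SE 0.44, 0.45 to 2.22), and 3.67-fold more on AB012600_s_at. Nr1d1 was 4.38-fold lower on M25804_g_at, at -2.13 (SE 0.38, -2.90 to -1.37). Dbp was 6.06-fold lower on J03179_g_at, at -2.60 (SE 0.53, -3.68 to -1.52). Activator and output again stood on opposite sides. Nr1d2 was lower without overlap, at -1.50 (SE 0.56, -2.64 to -0.37), and Per2 overlapped, at -0.74 (SE 0.37). The 6 calls of 8, 2 higher and 4 lower, compare with 19.2% of all tested probe sets, 11.3% higher and 7.89% lower. Macrophage and lymphocyte markers, 4 of 5 in each list, were higher in the same comparison, and 2 of 6 smooth muscle markers lower. Their scores were 1.13 to 1.39 against -1.38 to -0.35 for macrophages and 1.53 to 2.05 against -1.27 to -0.98 for lymphocytes. The neutrophil, endothelial, adipocyte and immediate early scores were also higher, and the smooth muscle score lower (-0.72 to -0.27 against 0.18 to 1.13), without overlap. Within these lists genes were called in both directions, with 2 of 7 adipocyte genes higher and 1 lower. Of 9 immediate early genes 2 were higher and 2 lower. The ratio of 3' to 5' actin probe sets lay between 7.38 and 8.09 in left gel and between 11.8 and 23.7 in sham. The part of these in the clock values was not tested. The difference from sham was also compared between days. The day 4 value minus the day 1 value was 2.70 (SE 0.64) for Bmal1 AF015953_at and -2.40 (SE 0.55) for Nr1d1 M25804_g_at. It was called for 5 of 8 probe sets, against 2.42% of all tested. The sham arrays of both days enter this value as they enter the comparison of sham days. Mean log2 signal of Bmal1 AF015953_at on days 1 and 4 was 8.32 and 8.31 in left gel and 9.68 and 6.97 in sham. That of Nr1d1 M25804_g_at was 8.16 and 7.70 in left gel and 7.89 and 9.83 in sham.

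In the uninjured right arteries of the gel-treated rats the signs against sham were those of the left arteries on both days, with the same sham arrays in both comparisons. On day 1 Bmal1 was 4.18-fold lower than in sham on AF015953_at, at -2.06 (SE 0.47, -3.02 to -1.11). Nr1d2 was higher by 1.91 (SE 0.60, 0.68 to 3.14), Nr1d1 by 1.01 (SE 0.41, 0.19 to 1.84) and Dbp by 0.98 (SE 0.57). Every probe set but that of Per2 had no overlap between the groups, a description, since the share of all tested probe sets without overlap is not given here. Still only Bmal1 AF015953_at was called, 1 of 8, against 0.927% of all tested probe sets. The count became 0 without sham replicate 3 or right gel replicate 1, and 0 with a block on replicate numbers, while 5 of 8 were under 0.05 unadjusted without the block. It became 2 with a higher floor or a fit of only these groups, where 52 and 37 of the 5827 tested probe sets were called. It was 3 without the 4 tPA arrays that stood apart, where the share of all tested probe sets is not given here. Same-numbered arrays of these 2 groups deviated together, with r of 0.12 to 0.28. The GAPDH 3' to 5' ratio was 3.25 to 5.61 in right gel and 7.53 to 10.3 in sham, and that of actin 10.2 to 15.2 and 16.3 to 21.1. The lymphocyte score was -1.49 to -0.45 in right gel and -0.28 to 0.54 in sham, and the part of these measures was not tested. On day 4 Bmal1 was 3.42-fold higher than in sham, at 1.77 (SE 0.44, 0.89 to 2.66). Dbp was 4.62-fold lower, at -2.21 (SE 0.53, -3.29 to -1.13), and Nr1d1 2.56-fold lower, at -1.36 (SE 0.38, -2.12 to -0.59). This made 5 calls of 8, 2 higher and 3 lower, against 8.82% of all tested probe sets, 6.23% higher and 2.59% lower. Without right gel replicate 3 there was 1 call. In this comparison 5 of 7 nerve markers were higher and 1 was lower, and 4 of 7 adipocyte markers were higher. Nerve scores were 2.23 to 3.42 against -1.03 to -0.23 in sham. Also without overlap, right gel had higher scores for macrophages (-0.13 to 0.30 against -1.38 to -0.35, 2 of 5 called), lymphocytes (-0.28 to 0.19 against -1.27 to -0.98) and endothelium (0.42 to 0.45 against -0.39 to 0.27). The smooth muscle score was lower, from -0.35 to 0.0036 against 0.18 to 1.13. The part of these in the clock values was not tested. The day 4 value minus the day 1 value was 3.83 for Bmal1 AF015953_at and -3.19 for Dbp J03179_g_at, called for 6 of 8 probe sets against 7.84% of all tested.

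Left and right arteries of gel-treated rats were then compared directly. On day 1 Bmal1 differed by 0.70, Nr1d1 by -0.75 and Dbp by -0.85 on their brightest probe sets, and on day 4 by -0.43, -0.77 and -0.39. The other Bmal1 probe set had the opposite sign on day 1, at -0.47, and was at -0.45 on day 4. By limma 0 of 8 were called on either day, with 0 and 2 under 0.05 unadjusted, against 0.549% and 5.10% of all tested probe sets. On the brightest probe sets of these 3 genes the difference between the arteries on day 4 was smaller than that of either artery from sham, a statement on sizes and not a test. Nr1d1 M25804_at went against this, with mean log2 signals on day 4 of 6.26 in left gel, 7.94 in right gel and 9.21 in sham. On M25804_at and Dbp J03179_at the left gel arrays of day 4 lay below the right ones without overlap. So did the actin ratio (7.38 to 8.09 against 11.7 to 13.6) and the nerve score. The macrophage, neutrophil, lymphocyte and immediate early scores lay above. On day 1 the GAPDH ratio (6.47 to 9.04 against 3.25 to 5.61), skeletal muscle and macrophage scores lay above and the nerve score below, without overlap. The part of these was not tested. With array weights, or in a fit of only these groups, 2 were called on day 4, where 1002 and 555 of the 5827 tested probe sets were called. Without the 4 tPA arrays that stood apart 1 was called on day 4, where the share of all tested probe sets is not given here. Left gel arteries of day 4 against day 1 had 0 of 8 called by limma, 2 unadjusted and 3.21% of all tested, with Per2 at -0.89 and Dbp at 0.11, a value whose sign turns under another scaling. With array weights that count was 4, where 1840 of the 5827 tested probe sets were called. Without the 4 tPA arrays it was 1, and the share of all tested probe sets is not given here either. Bmal1 AF015953_at differed by -0.01 between these days. Without overlap, the array medians were higher on day 4 (131.95 to 153.3 against 111.9 to 127.3). The ratios of actin (7.38 to 8.09 against 13.4 to 19.4) and GAPDH (1.41 to 6.22 against 6.47 to 9.04) were lower. The skeletal muscle score was also lower, and the macrophage, lymphocyte, endothelial, adipocyte, nerve and immediate early scores were higher. The part of these was not tested.

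**Figure D2:**
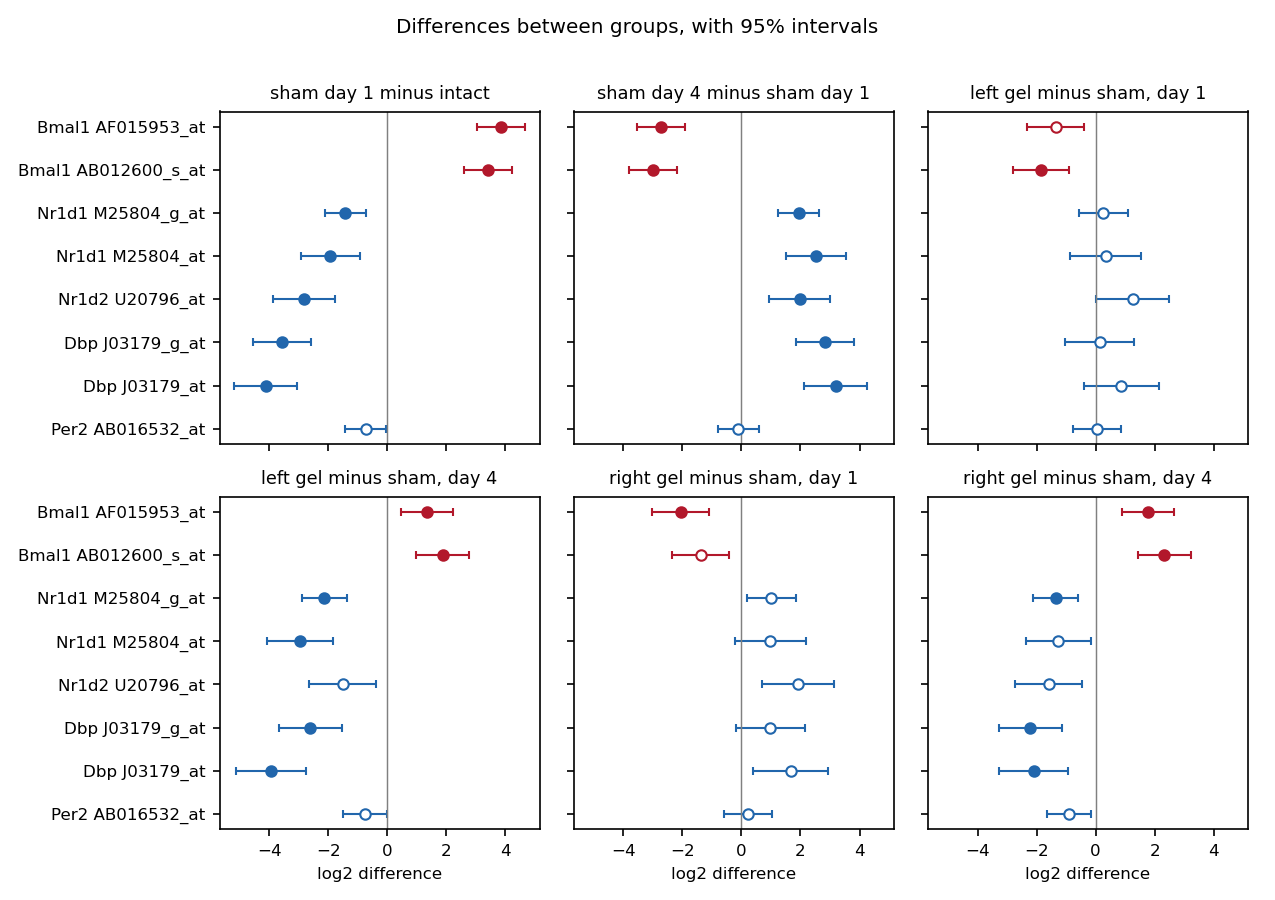
Log2 difference (horizontal axes) of each of the 8 probe sets (vertical axis) in 6 comparisons, with 95% intervals as bars. Red marks Bmal1 and blue the other genes, and filled points were called. Bmal1 lies opposite to most of the others in each panel, and the signs on day 4 against sham are the reverse of those on day 1.

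Treatment of the injured artery with tPA was compared with plain gel. On day 1 Per2 was lower, at -1.09 (SE 0.42, -1.95 to -0.23) without overlap, and Bmal1, Nr1d1, Nr1d2 and Dbp differed by -0.34, 0.61, 0.04 and 0.63 on their brightest probe sets, with the sign of Nr1d2 turning under another scaling. The other Bmal1 probe set went the opposite way, at 0.95. By limma 0 of 8 were called, 1 was under 0.05 unadjusted, and 0.120% of all tested probe sets were called. Without the 4 arrays that stood apart, Per2 was at -0.98, Nr1d1 at 0.70 and Nr1d2 at -0.05. The Bmal1 probe sets were then at -0.34 and 1.48, and Dbp at -0.03 in place of 0.63. With all arrays kept, the medians on day 1 were 127.35 to 143.95 under tPA and 111.9 to 127.3 in gel, without overlap. At the floor were 17.4% to 20.3% and 21.2% to 24.8% of probe sets. The skeletal muscle score was lower under tPA (-1.48 to 1.77 against 2.42 to 3.63). The endothelial, nerve and glucocorticoid-responsive scores were higher, all without overlap. The part of these measures on day 1 was not tested. On day 4 Dbp J03179_at was 11.8-fold higher under tPA, at 3.56 (SE 0.67, 2.20 to 4.91), and J03179_g_at was higher by 1.99 (SE 0.61, 0.75 to 3.24). For J03179_at 2 of the 3 gel arrays lay at the floor, so its fold is understated. The first was the only call, 1 of 8 against 0.120% of all tested, although 6 were under 0.05 unadjusted. Nr1d1 was higher by 1.83 (SE 0.43, 0.95 to 2.71) on M25804_g_at and Per2 by 0.90 (SE 0.42, 0.04 to 1.76). Bmal1 differed by -0.51 on AF015953_at and by -1.88 (SE 0.50, -2.90 to -0.85) on AB012600_s_at. In the tPA arteries of day 4, then, Dbp and Nr1d1 lay nearer to the sham level of that day than in gel arteries. The single call was lost without left gel replicate 2, left gel replicate 3 or left tPA replicate 1, and in a fit of only these groups. It became 2 calls without left tPA replicate 3 and 5 with array weights, where 17 and 339 of the 5827 tested probe sets were called. Without all 4 arrays that stood apart Dbp J03179_at stayed called at 3.23, and J03179_g_at, Nr1d1 M25804_g_at and Bmal1 AF015953_at were at 1.70, 1.64 and -0.05. Bmal1 AB012600_s_at and Per2 were then at -1.66 and 0.77. The actin ratio lay between 11.02 and 16.02 under tPA, above all gel arrays. The macrophage score was -0.33 to 0.99 under tPA and 1.13 to 1.39 in gel, and the endothelial, adipocyte and nerve scores were lower as well, without overlap. The part of these was not tested. The change of the tPA difference from day 1 to day 4 was called for none of the 8 probe sets by limma, and for 0.0858% of all tested. Without the 4 arrays that stood apart, 2 of 8 were called, Bmal1 AB012600_s_at at -3.14 and Dbp J03179_at at 3.13, against 2.18% of all tested.

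Left and right arteries of tPA-treated rats overlapped on nearly every probe set. On day 1 Dbp J03179_g_at differed by -0.56 and on day 4 by -0.28, with 0 of 8 called by limma and 0 unadjusted on either day, against 0.0172% and 0.0343% of all tested probe sets. Without the 4 arrays that stood apart, 2 of 8 were called on day 1, Dbp J03179_g_at at -2.12 and J03179_at at -1.98, lower in the left artery. Both read the same transcript, each group had 1 array fewer, and the arrays were left out after seeing the data. The share of all tested probe sets called in that fit is not given here, so the count is a description. On day 4, without the same 4 arrays, Bmal1 AF015953_at was at 1.63 and Dbp J03179_g_at at -1.13. The directions of the left gel and right gel comparison and of this one were the same for Dbp, but the difference between them was not tested.

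Across the 40 arrays Bmal1 and Dbp moved against each other. Pearson's r between AF015953_at and J03179_g_at was -0.82, Spearman's rho -0.81, and r was -0.79 without the 2 arrays farthest from the Bmal1 median. Over the 11 group means r was -0.89, and within groups, after each group's mean was removed, it was -0.44. Bmal1 was also opposed to Nr1d1 (r = -0.66, within groups -0.41), to Nr1d2 (-0.68, within groups -0.11) and, least, to Per2 (-0.44, within groups -0.20). Among the others Nr1d1 and Dbp (r = 0.77), Nr1d2 and Dbp (0.68), Nr1d1 and Nr1d2 (0.65) and Nr1d2 and Per2 (0.60) were positively correlated, and Nr1d1 and Per2 least so (0.25). The arrays share one scaling and the genes were picked for these group differences, so that the coefficients describe this set of arrays.

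**Figure D3:**
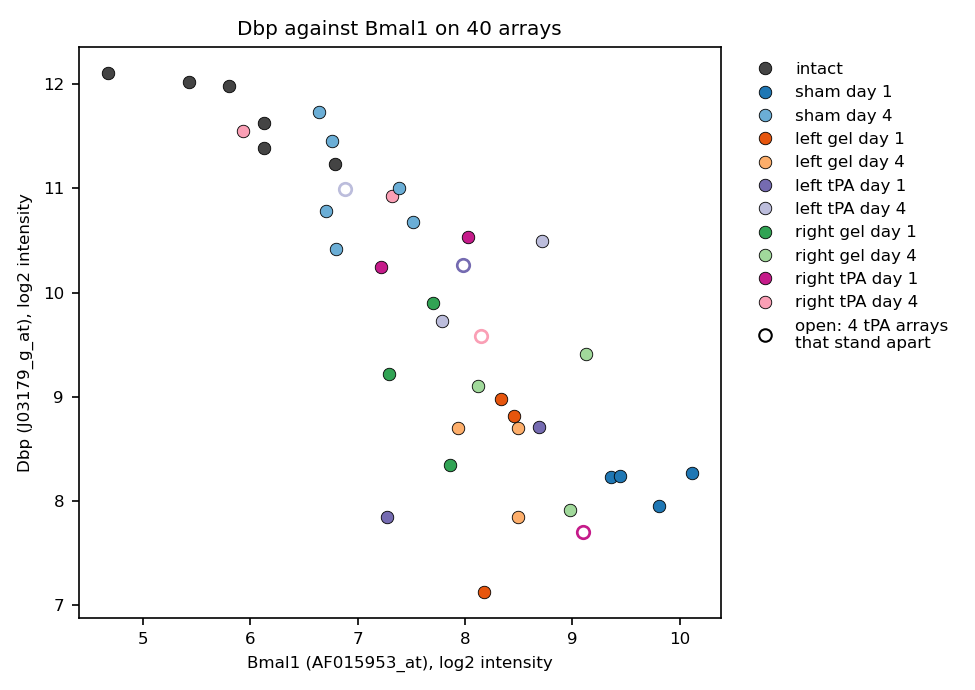
Bmal1 AF015953_at (horizontal axis) against Dbp J03179_g_at (vertical axis), both as log2 intensity, with 1 point for each of 40 arrays coloured by group and open points for the 4 tPA arrays that stood apart. The points run from the intact arrays at low Bmal1 and high Dbp to the day 1 sham arrays at the other end.

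To place each array on 1 scale, the 4 genes that oppose Bmal1 were averaged after each gene was centred over the 40 arrays, and centred Bmal1 was subtracted. The difference ran from 1.86 through 3.03 to 4.42 in the intact arteries and from 0.86 through 1.38 to 1.86 in the day 4 sham arteries. The day 1 sham arteries were at the other end, from -3.46 through -2.89 to -2.72. Those 3 groups of left arteries without balloon injury thus spanned the whole range. The left gel arrays were tight, at -1.27 to -1.08 on day 1 and -1.80 to -1.62 on day 4. Right gel arrays ran from -0.14 to 0.48 on day 1 and from -2.73 to -1.27 on day 4. In the left tPA group they ran from -1.55 to -0.37 on day 1 and from -0.48 to 1.33 on day 4, so the days overlapped, and the day 4 values lay above those of left gel on day 4 without overlap. The right tPA groups were the widest, from -2.62 to 1.33 on day 1 and from -1.33 to 2.47 on day 4, and in both the lowest array was the one that stood apart. Of 55 pairs of groups 31 had no overlap. This scale was built from genes chosen on these arrays and is a description.

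**Figure D4:**
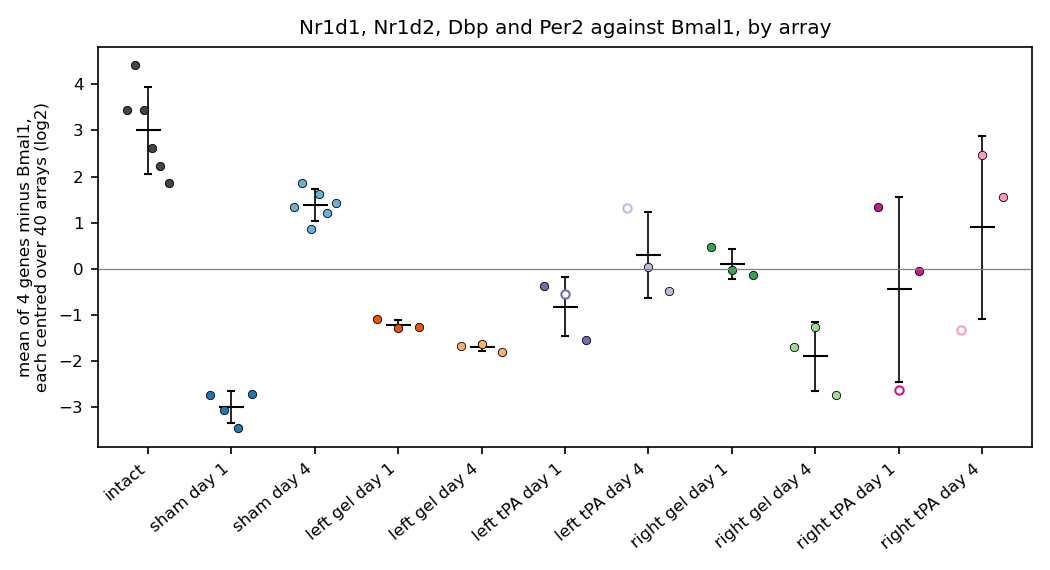
Mean log2 of Nr1d1, Nr1d2, Dbp and Per2 minus that of Bmal1 (vertical axis), each gene centred over 40 arrays, by group (horizontal axis). Points are arrays, bars are means with SD, and open points are the 4 tPA arrays that stood apart. Intact arrays sit at 1.86 to 4.42 and day 1 sham arrays at -3.46 to -2.72.

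Of 33 other genes of the clock, its kinases and its outputs, 15 had a probe set named here and 12 were bright enough to test. Clock, the cryptochromes, Per1 and Per3 were among the genes without a probe set named here. Wee1, a mitotic kinase known as a clock output, passed the F test over all groups (limma adjusted p = 0.0373), 1 of 12 against 26.1% of all tested probe sets. It read 407.0 to 855.1 in the intact arteries, 401.5 to 554.2 in the day 1 sham and 201.5 to 534.5 in the day 4 sham arteries, and passed in no single comparison. The F test called 0 of 12 without any 1 of right gel day 4 replicates 2 and 3, left gel day 4 replicates 1 and 3, sham day 1 replicates 2 and 3, sham day 4 replicate 1, intact replicates 3, 5 and 6, left gel day 1 replicate 3 and left tPA day 1 replicate 3. It called 2 without right tPA day 4 replicate 1 or 3, sham day 4 replicate 2 or right tPA day 1 replicate 2, and 3 without left tPA day 4 replicate 1 or without all 4 tPA arrays that stood apart. With array weights 9 of 12 passed, and 2 with median scaling or without the filter. The next smallest F test values were those of Bhlhe41 and Bhlhe40, E-box repressors also called DEC2 and DEC1 (limma adjusted p = 0.0802 and 0.178), Gsk3b, a kinase of clock proteins (0.0847), Tef, a D-box factor related to Dbp (0.0954), and Alas1, the first enzyme of haem synthesis (0.166). A second Gsk3b probe set, X53428cds_s_at, did pass (limma adjusted p = 0.00909).

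In single comparisons 2 of these genes passed. Tef rose from sham day 1 to sham day 4, as Dbp stood higher on day 4. It read 323.8, 279.8, 236.0 and 388.8 on day 1 and 399.0 to 749.7 on day 4, without overlap, a difference of 0.70 (SE 0.21, limma adjusted p = 0.0424), and was 1 of 12 called against 5.01% of all tested. Bhlhe41 read 3441.8, 2394.5 and 3112.5 in left gel arteries on day 4, above its 6 sham arrays of that day, which ran from 643.5 to 1445.6. That rise was 1.58 (SE 0.56, limma adjusted p = 0.0446), the 1 call of 12 where 19.2% of all tested probe sets were called. Against left gel on day 1, where it read 1013.8, 189.6 and 892.9, the rise was 2.41 (SE 0.65, limma adjusted p = 0.0324), 1 of 12 against 3.21%. In the other 11 comparisons limma called 0 of 12, with 0 to 2 under 0.05 unadjusted. Between day 1 sham and intact, where 7 of 8 clock probe sets were called, the median of these 12 genes was -0.28.

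**Figure D5:**
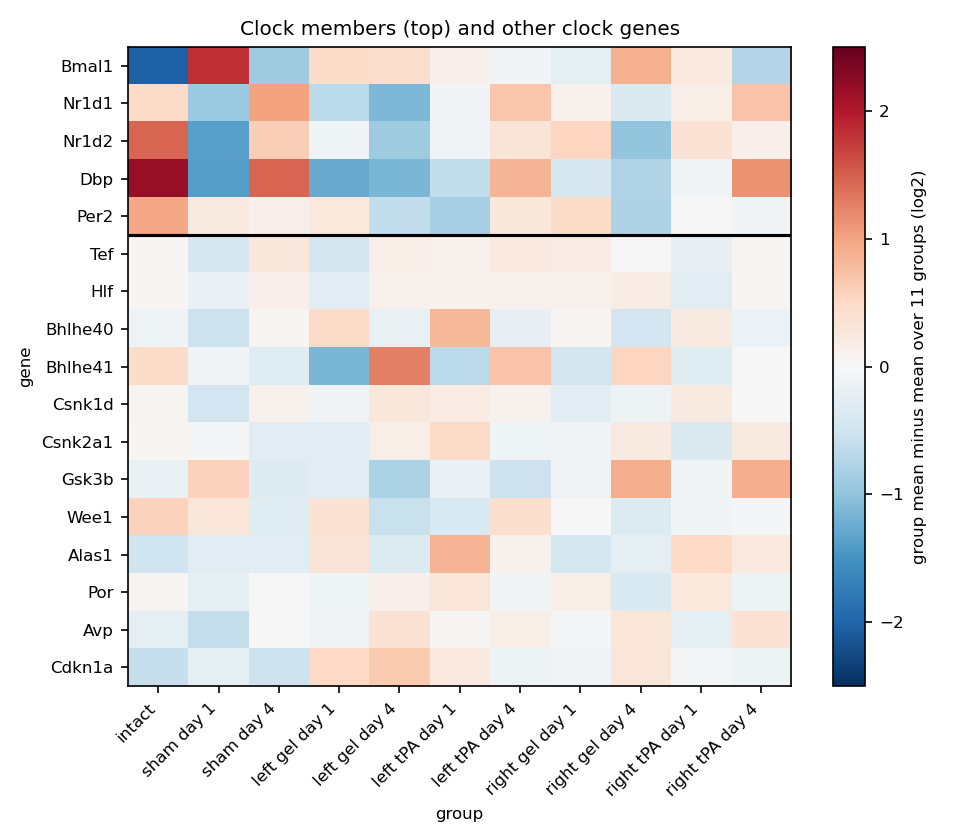
Group mean minus the mean over 11 groups (colour, log2) for the 5 genes, above the line, and the 12 other clock genes tested, below it, with groups on the horizontal axis. The upper rows hold the strongest colours, and Bhlhe41 stands out below the line in left gel on day 4.

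Glucocorticoid-responsive and immediate early genes, which handling and surgery are known to move, were read on the same arrays. Of 8 glucocorticoid-responsive genes limma called 0 between day 1 sham and intact (0 unadjusted) and 0 between the sham days (1 unadjusted). Of 9 immediate early genes it called 0 between day 1 sham and intact (2 unadjusted), and Klf4 and Egr2 fell from sham day 1 to sham day 4, both transcription factors of the early response, 2 of 9 against 5.01% of all tested. In left gel against sham on day 4, where 19.2% of all tested were called, 3 of 8 of the first list passed (Klf9 and Dusp1 lower, Glul higher) and 4 of 9 of the second (Egr1 and Fos lower, Klf4 and Egr2 higher). In right gel against sham on day 4, where 8.82% were called, Dusp1 and Egr1 were lower and Klf4 higher. Over all groups the F test called 3 of 8 (Dusp1, Glul and Cebpb) and 3 of 9 (Egr1, Egr2 and Klf4), near the 26.1% of all tested. Whether these genes bear on the clock values was not tested.

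Genes whose signal followed each clock gene most closely over the 40 arrays were sought among 3541 other named genes. For Bmal1 these were Ctse, the protease cathepsin E (r = 0.69), Thbs4, a matrix thrombospondin (0.68), and Igfbp3, an IGF-binding protein (0.67), with Camk1, a calcium-dependent kinase, most opposed (-0.64). Camk1 was in turn the gene most like Dbp (0.73), followed by the aminopeptidase Aopep (0.72) and the epoxide hydrolase Ephx1 (0.72), and Pde7a, a phosphodiesterase, was most opposed to Dbp (-0.77). For Nr1d1 the closest were Cabin1 (0.67), the aldehyde dehydrogenase Aldh2 (0.66) and Gabrd (0.65), and Polr2g was most opposed (-0.63). For Nr1d2 they were Rbl2, a pocket protein of the retinoblastoma family (0.72), the collagen Col15a1 (0.68) and the kinase Rock1 (0.67), with Ctse most opposed (-0.59). Per2 was closest to Cbfa2t2 (0.78), Chn2 (0.78) and the cyclooxygenase Ptgs1 (0.77), and most opposed to Ly6c (-0.77). The coefficients rest on group differences that the clock genes were chosen for and on one scaling per array. None of the other clock genes tested was among those named.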

How the data were processed

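RNA of rat carotid arteries, 3 vessels pooled per array per the labels' protocols, was hybridised to Affymetrix U34A arrays. The authors deposited an intensity on a linear scale for each probe set on each array. The method that summarised probes is not given in the sources used here. From 8799 probe sets 59 controls were removed, and 89 values were 0. A floor of 23.3 was applied before the log2 step, so changes near it come out too small. A filter removed the 2913 dimmest probe sets by mean. Gene symbols came from the platform annotation: 7006 probe sets had 1, 308 several and 1426 no entry.

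Using limma 3.58.1 (lmFit, eBayes) under R 4.3.3, 11 group means with 1 shared estimate of the spread were fitted to all 40 arrays. Benjamini-Hochberg adjustment ran over all tested probe sets, and called means an adjusted p below 0.05. The fit was tested on simulated data. The probe set with the highest mean stands for a gene. Of the other clock genes, those passing the F test were named or, with under 6, the 6 with the smallest p. For likeness the 3 highest and the 1 lowest r were named, and up to 3 genes of other lists with the smallest F test p. The genes, lists and motifs were chosen with earlier results of these data known. Same-numbered arrays deviated together (every r over 0.1) in 1 of 14 comparisons. Alternatives varied scaling, floor, filter, array weights, block, groups fitted and arrays left out.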

Additional observations from a re-analysis of the deposited data

Results flagged for a closer look

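Among the clock probe sets, 3 of the 24 groups tested (those with at least 4 arrays) held an array far from the others of its group. Chance gives about 5% for independent groups away from the floor, but these include paired probe sets and floor values, so no excess is read from the count. Bmal1 AB012600_s_at read 37.8 on intact replicate 3. The other intact arrays were at the floor and so had the same value, from which any array above the floor would stand out. Nr1d2 read 490.5 on intact replicate 5, below the rest of that group. Dbp J03179_g_at read 247 on replicate 2 of the day 1 sham arteries, slightly below the others.

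The difference between gel and sham arteries was itself different on day 4 and day 1. For the left artery the day 4 difference minus the day 1 difference was 2.70 for Bmal1 AF015953_at, 3.73 for Bmal1 AB012600_s_at, -2.40 for Nr1d1 M25804_g_at, -3.29 for Nr1d1 M25804_at and -4.81 for Dbp J03179_at, each called by limma, as were 2.42% of all tested probe sets. For the right artery it was 3.83 and 3.72 for the Bmal1 probe sets AF015953_at and AB012600_s_at. It was -2.37 for Nr1d1 M25804_g_at, -3.50 for Nr1d2, -3.19 for Dbp J03179_g_at and -3.77 for Dbp J03179_at, against 7.84% of all tested probe sets. Both arteries were set against the same sham arrays, so the 2 sets of values are not independent. The values also take in the change of the sham arteries between the days. For Bmal1 AF015953_at the mean log2 signal on days 1 and 4 was 9.68 and 6.97 in sham. It was 8.32 and 8.31 in left gel and 7.62 and 8.74 in right gel. For Dbp J03179_at it was 5.67 and 8.86 in sham, 6.54 and 4.92 in left gel and 7.34 and 6.76 in right gel. The matching differences for tPA against gel by day were called for none of the 8 probe sets, and for 0.0858% of all tested. Without the 4 tPA arrays that stood apart they were called for 2 of 8.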

How the results depend on the processing

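Of 366 alternative values of the counts of called probe sets and genes, 316 stayed within 1.5 times the reported count. No called difference turned its sign, while quantile or median scaling turned that of uncalled, small differences of Nr1d2, Dbp and Per2. Of the 28 called pairs of probe set and comparison, 26 stayed called under quantile normalization and under median scaling, 27 without the filter, 28 with array weights and 21 with a block on replicate numbers. With array weights the count became 5 for left gel against sham on day 1, 4 for left gel day 4 against day 1, 9 of 12 for other clock genes by the F test, 5 for tPA against gel in the left artery on day 4 and 2 for left against right gel on that day. Calls over all 5827 tested probe sets rose as well, to 1430, 1840, 339 and 1002 in these single comparisons, in the same order. In fits of only the groups compared it became 2 for left and 2 for right gel against sham on day 1, 0 for tPA against gel in the left artery on day 4 and 2 for left against right gel on that day. A stricter filter (50% left out) and the alike left gel pair averaged both gave 0 for left gel against sham on day 1, a floor at the 40th percentile gave 2 for right gel against sham on day 1, and median scaling or no filter each gave 2 for other clock genes. Leaving out the 4 tPA arrays that stood apart was an alternative chosen after seeing the data. The counts were then 2 for left and 3 for right gel against sham on day 1. They were 1 for left against right gel on day 4 and 1 for left gel day 4 against day 1. For left against right tPA on day 1 the count was 2, and for other clock genes 3. Calls over all 5827 tested probe sets in left gel against sham on day 1 rose as well, from 182 to 430. For the other counts of that fit the calls over all tested probe sets are not given here, so these counts are a description. With the block, right gel against sham gave 0 on day 1 and 3 on day 4; the numbers paired the arrays only in the first. Leaving out 1 array at a time gave 5 to 7 for day 1 sham against intact, 6 to 7 between sham days, 0 to 1 and 5 to 7 for left gel against sham on days 1 and 4, 0 to 1 and 1 to 5 for right gel against sham, 0 to 2 for left tPA against gel on day 4, 8 to 8 by the F test of the clock probe sets, 0 to 3 for other clock genes and 0 in the remaining comparisons. The cause of these shifts was not tested, except where a filter dropped a probe set. Groups of 3 to 6 arrays and values at the floor limit the precision. Median scaling moved the median of all tested probe sets by up to 0.30 (left gel, day 4 against day 1).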
